A study of Rattus norvegicus with 60 samples.

Results

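The let-7 family guide strands were followed in the rat retina after ischemia-reperfusion (IR) injury. Members were taken by name from the array annotation (every rat miR named let-7 followed by a letter from a to i, and miR-98, with no star in the name), which gave 8 of the 350 rat miRs on the array, namely rno-let-7a, rno-let-7b, rno-let-7c, rno-let-7d, rno-let-7e, rno-let-7f, rno-let-7i and rno-miR-98. No measured value entered this choice, and 8 of the 8 members were among the 159 miRs tested. The animals were male Long Evan’s hooded rats of 250 to 300 g (the labels give no age). In the IR groups saline raised the pressure in the cannulated eye to 110 mmHg for 60 min, and whole retinas were taken after reperfusion for 0 h (the end of ischemia), 2, 24 or 48 h, or 7d. Sham control rats had the same surgery at the same 5 times without the rise in pressure. Each of the 10 groups held 6 rats with 1 array per rat, so 30 IR and 30 sham control arrays were compared. The RNA came from the whole retina, and in such bulk samples fewer cells of a type and less RNA per cell cannot be told apart.

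A miR is cut from a hairpin RNA, and its guide strand is loaded into an Argonaute protein that it leads to target mRNAs, mainly through the bases near its 5′ end called the seed. The let-7 members share this seed and are best known for promoting the differentiated state of cells, with Lin28, Hmga2 and Ras genes among their classic targets. The protein LIN28 holds back the maturation of let-7 hairpins, and in the developing retina let-7 belongs to the miRs that time the passage from early to late progenitors.

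The mature sequences show how little sets the members apart, which bears on how well an array can tell them apart. RefSeq (build GRCr8) held 8 of the 8 members, all of 22 bases, and they are given 5′ to 3′ with the seed (bases 2 to 8) in capitals.
rno-let-7a: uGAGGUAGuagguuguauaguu
rno-let-7b: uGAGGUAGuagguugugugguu
rno-let-7c: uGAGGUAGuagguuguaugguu
rno-let-7d: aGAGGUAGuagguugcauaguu
rno-let-7e: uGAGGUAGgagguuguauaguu
rno-let-7f: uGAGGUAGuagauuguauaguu
rno-let-7i: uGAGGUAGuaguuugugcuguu
rno-miR-98: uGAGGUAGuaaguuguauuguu

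The 8 members carried 1 seed between them. Counted from 1 at the 5′ end and with rno-let-7a as the reference, rno-let-7c differed by A19G, rno-let-7e by U9G and rno-let-7f by G12A. The change in rno-let-7b was A17G with A19G, that in rno-let-7d U1A with U16C, and that in rno-miR-98 G11A with A19U. rno-let-7i stood farthest from rno-let-7a with G12U, A17G, U18C and A19U. Over the 28 pairs the number of differing bases ran from 1 to 6, and 4 pairs differed by 1 base. Signal shared between such near-identical members was not tested, so their values are uncertain to that extent. Bases that are G or C numbered from 7 (rno-let-7f and rno-miR-98) to 10 (rno-let-7b).

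In GRCr8 the members came from 11 loci. The largest cluster lay on the plus strand of chromosome 17 within an lncRNA gene (LOC120097935), where rno-let-7a (chr17:16320145-16320166), rno-let-7f (chr17:16320508-16320529) and rno-let-7d (chr17:16322273-16322294) followed each other. Another copy of rno-let-7f (chrX:24460052-24460073) lay 520 bases from rno-miR-98 (chrX:24460663-24460684), both within Huwe1, which encodes a ubiquitin ligase. On chromosome 7 a copy of rno-let-7c (chr7:118683636-118683657) lay 320 bases from rno-let-7b (chr7:118684044-118684065). rno-let-7e (chr1:67350243-67350264, within Spaca6) had miR-99b and miR-125a as neighbours, the other copy of rno-let-7c (chr11:29688127-29688148) had miR-99a, and the other copy of rno-let-7a (chr8:50805219-50805240) had miR-100. rno-let-7i (chr7:60527935-60527956, minus strand) lay apart from the other loci. An array measures the mature strand, so the 2 copies of rno-let-7a, of rno-let-7c or of rno-let-7f gave 1 value together.

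Levels are log2 signals after division by the 75th percentile of the array, read from the 57 miRs that every one of the 60 arrays detected, and a difference is IR minus sham control on this log2 scale. Between 59 and 232 miRs were detected per array. Before scaling, the log2 of this 75th percentile, called brightness here, was lower in IR at 24 h (8.27 ± 0.57 against 10.42 ± 0.35) and at 7d (8.16 ± 0.47 against 10.74 ± 0.24, SD, n = 6, exact two-sided permutation test, p = 0.00216 and adjusted p = 0.00722 at both times over 10 tests of array measures). At 48 h the adjusted p of the same exact test was 0.013, at 0 h it was 0.0505 and at 2 h it was 0.913. On 24 of the 60 arrays (9 IR and 15 sham control) the percentile fell on a let-7 member itself, which fixed the value of that member there. The sham control 48 h array of replicate 1 stood apart from its group in 5 members and in brightness, and results that rest on it are given with and without it. All 8 retinal marker miRs, including miR-124 of neurons, were detected on 60 of 60 arrays.

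After scaling to the 57 miRs, the guide strands of the family differed little between IR and sham control. These 57 miRs include 7 of the 8 members, which ties the scale in part to the family. No member then reached a 2-fold difference at any time, and the largest was 1.30-fold (rno-let-7f at 7d). At an adjusted p of at most 0.05 (limma, Benjamini-Hochberg over the 159 miRs of a comparison), 1 of 8 members was called at 0 h, 0 at 2 h, 1 at 24 h, 0 at 48 h and 4 at 7d. The share of all 159 miRs called in the same way was 12.6% at 0 h, 7.55% at 2 h, 60.4% at 24 h, 54.7% at 48 h and 59.7% at 7d. With a fold change of at least 2 as well, 0 of 8 members and 6.92%, 5.03%, 18.2%, 13.8% and 18.2% of all miRs were called at these times. Groups that did not overlap were seen in 1, 0, 1, 0 and 2 members, and in 4.4%, 3.14%, 34%, 15.1% and 41.5% of all miRs. With no normalization the 8 differences ran from −2.43 to −1.85 at 24 h and from −2.96 to −2.22 at 7d. The medians of all miRs were then −2.07 and −2.54. With normexp background correction rno-miR-98 was at 1.29 at 7d, where the median of all miRs was 1.15.

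Scaled to the 57 miRs, the members did not move one way at 24 h, 48 h or 7d. Their median difference was 0.12 at 0 h (0.02 over all 159 miRs), 0.05 at 2 h (−0.01), −0.01 at 24 h (−0.13), −0.10 at 48 h (−0.15) and 0.03 at 7d (−0.15). Regardless of sign, the median size was 0.15 for the members and 0.40 for all miRs at 24 h, and 0.19 and 0.40 at 7d. These sizes do not show a steadier family. A member set the scale on 24 of 60 arrays, and miRs of like brightness were not compared. At 0 h the 8 differences ran from 0.07 to 0.25, so all lay above 0 with this scaling, whereas scaling to the 75th percentile over all miRs gave a median of −0.20 with 8 of 8 members below 0 and moved the median of all miRs by −0.31. At 24 h the members ran from −0.28 to 0.30, and at 7d from −0.38 to 0.36. With scaling over all miRs 8 of 8 members were below 0 at 24 h (median −0.33, 5 called) and 7 of 8 at 7d (median −0.17). A fit of the deposited table gave the same counts below 0, with a median of −0.37 and 7 called at 24 h and a median of −0.22 at 7d.

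**Figure D1:**
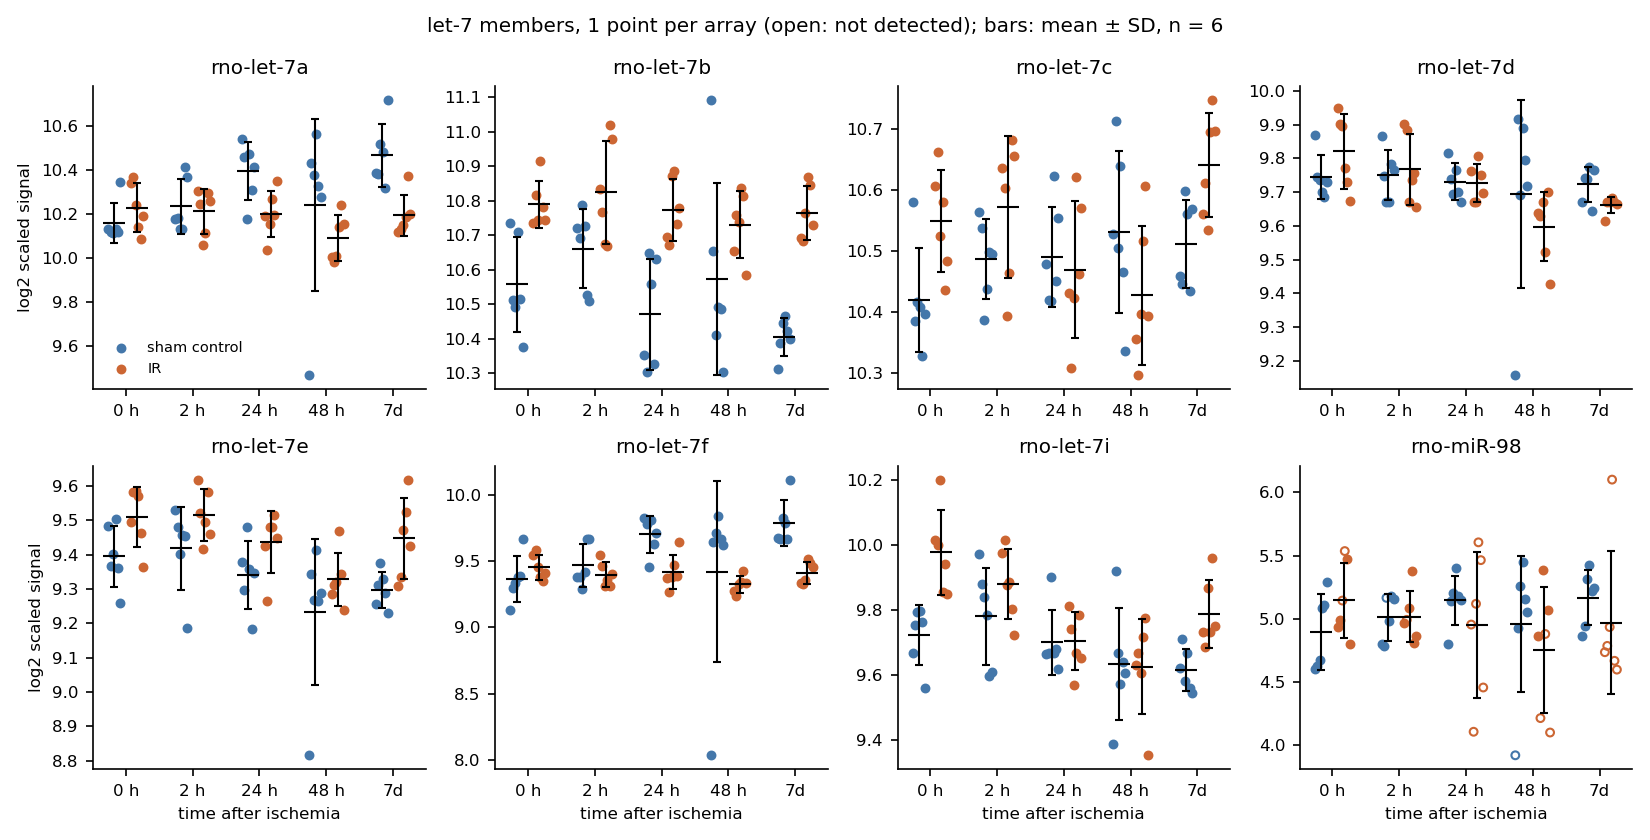
Level of each let-7 member (log2 scaled signal, vertical axis, with its own range in each panel) by time after ischemia, with 1 point per array in blue for sham control and orange for IR, open where the miR was not detected, and bars for mean ± SD of 6 arrays. The IR arrays of rno-let-7b lie above the sham control arrays at 24 h and 7d, those of rno-let-7f lie below them at 7d, and 1 sham control array at 48 h (replicate 1) lies far from the others for rno-let-7a, rno-let-7d, rno-let-7e and rno-let-7f.

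rno-let-7b, which shares its chromosome 7 locus with a copy of rno-let-7c, was called at 24 h and at 7d, each time with a higher level in IR. At 24 h its level was 10.67, 10.76 and 10.89 in IR (lowest, median and highest of 6 arrays) and 10.30, 10.46 and 10.65 in sham control. The groups did not overlap, with 6 of 6 IR values above the highest sham control value. The difference was 0.30 (SE 0.08, 95% confidence interval 0.14 to 0.47, 1.23-fold, limma adjusted p = 0.0017), and it turned to −0.01 with scaling over all miRs, to −0.05 in the authors' table and to −1.85 with no normalization. Those settings moved the median of all miRs by −0.30, −0.38 and −1.94.

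At 7d the levels of rno-let-7b were 10.68, 10.75 and 10.87 in IR and 10.31, 10.41 and 10.47 in sham control. Again 6 of 6 IR values exceeded the highest sham control value. The difference of 0.36 (SE 0.08, 95% confidence interval 0.19 to 0.52, 1.28-fold, limma adjusted p = 0.00023) kept its sign under every scaling except no normalization, where it was −2.22. The 2 probes of rno-let-7b gave 0.12 and 0.32 at 7d, 0.25 and 0.29 at 24 h, and 0.38 and 0.13 at 2 h. Within the 3 scans, which held 1 to 3 arrays of a group, the difference at 7d was 0.34, 0.36 and 0.38, and at 24 h it was 0.36, 0.32 and 0.15. At the other times its difference was 0.23 at 0 h (limma adjusted p just above the threshold of 0.05), 0.16 at 2 h (limma adjusted p = 0.399) and 0.16 at 48 h (not called).

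rno-let-7a and rno-let-7f, neighbours in the chromosome 17 cluster, were called at 7d in the opposite direction. The levels of rno-let-7f at 7d were 9.33, 9.41 and 9.52 in IR and 9.67, 9.73 and 10.12 in sham control. The 6 IR values were all under the lowest sham control value. That value was held by replicates 2 and 5, where rno-let-7f itself set the scale of the array and so was fixed at 9.67. The difference of rno-let-7f was −0.38 (SE 0.14, 95% confidence interval −0.66 to −0.09, 1.30-fold lower, limma adjusted p = 0.0204), with the same sign under every scaling tried. Its call was nonetheless lost under 6 of 18 alternatives, not counting arrays left out.

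For rno-let-7a at 7d, the IR group held 10.12, 10.17 and 10.37 and the sham control group 10.32, 10.43 and 10.72. Here 5 of 6 IR values were under the lowest sham control value and 1 overlapped. The difference of rno-let-7a was −0.27 (SE 0.10, 95% confidence interval −0.47 to −0.08, 1.21-fold lower, limma adjusted p = 0.0127), and the sign was the same under every scaling, though quantile normalization left −0.02 (limma adjusted p = 0.817). Without the sham control 7d array of replicate 6, the highest in both members, rno-let-7a (−0.22, limma adjusted p = 0.0522) and rno-let-7f (−0.31, 0.0689) were no longer called. Within the 3 scans the difference at 7d was −0.26, −0.33 and −0.23 for rno-let-7a and −0.34, −0.37 and −0.42 for rno-let-7f.

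The 24 h differences of these neighbours were −0.20 for rno-let-7a (limma adjusted p = 0.069) and −0.28 for rno-let-7f (0.0796). Without the sham control 24 h array of replicate 3 both passed the threshold (−0.24, limma adjusted p = 0.0373, and −0.33, 0.0494). rno-let-7d, the other member of this cluster and the one that departs from let-7a at base 1, had differences between −0.10 and 0.08 over the 5 times (at 48 h −0.20 without the sham control 48 h array of replicate 1). Its level in IR at 7d was 9.61 to 9.68, and the sham control arrays held 9.65 to 9.77, so the groups overlapped. On IR replicates 2, 3 and 5 and sham control replicate 1 at 7d, rno-let-7d itself set the scale and so was fixed at 9.67. The 2 probes of rno-let-7d gave −0.31 and −0.11 at 7d.

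rno-let-7i, from a locus of its own, was called at 0 h and at 7d. At the end of ischemia its level was 9.85, 9.97 and 10.20 in IR and 9.56, 9.76 and 9.80 in sham control. The groups did not overlap. The difference of 0.25 (SE 0.07, 95% confidence interval 0.11 to 0.40, 1.19-fold, limma adjusted p = 0.0101) turned to −0.07 with scaling over all miRs, to −0.05 in the authors' table and to −0.81 with no normalization, and without the IR 0 h array of replicate 3 it was 0.21 (limma adjusted p = 0.0576).

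At 7d rno-let-7i held 9.69, 9.74 and 9.96 in IR and 9.54, 9.60 and 9.71 in sham control, and 5 of 6 IR values exceeded the highest sham control value. The difference was 0.17 (SE 0.07, 95% confidence interval 0.03 to 0.32, 1.13-fold, limma adjusted p = 0.0358), and it turned to −0.03 with scaling over all miRs, −0.08 in the authors' table, −2.41 with no normalization and −0.05 with the slide as a block. Leaving out any of 5 arrays (IR 7d replicates 3 and 5, sham control 7d replicates 3, 5 and 6) ended the call, with differences of 0.14 to 0.17. In the 24 h and 48 h groups its difference was 0.00 and −0.01.

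rno-let-7c, rno-let-7e and rno-miR-98 were not called at any time. rno-let-7c, whose copies lie beside let-7b and miR-99a, had its highest differences at 0 h and 7d, at 0.13 each (limma adjusted p = 0.164 and 0.0606), with 95% confidence intervals of 0.01 to 0.25. rno-let-7e, which shares its primary transcript with miR-99b and miR-125a, had differences from 0.10 to 0.15 over the 5 times (0.01 at 48 h without the sham control 48 h array of replicate 1), the last at 7d (95% confidence interval 0.01 to 0.28, limma adjusted p = 0.0523). For each member 2 probes on 10 spots were measured. The 2 probes of rno-let-7e gave −0.13 and 0.10 at 24 h and −0.20 and 0.11 at 7d, and those of rno-let-7i gave −0.11 and 0.14 at 7d and those of rno-let-7c 0.07 and −0.08 at 7d, so the probes of these members disagreed in sign.

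rno-miR-98 was the only dim member. It was detected on 40 of 60 arrays, and on 0 of 6 IR arrays at 24 h and at 7d against 6 of 6 sham control arrays at each of these times. Its measured level at 7d averaged 4.97 ± 0.57 over the 6 IR arrays and 5.17 ± 0.22 over the 6 of sham control (SD), and at 24 h it was 4.95 ± 0.58 and 5.15 ± 0.19. The lowest signal of a detected miR on those IR arrays, or the signal of rno-miR-98 where that was higher, averaged 5.16 at 24 h and 5.25 at 7d, above the sham control means, so no fold was given. The other 7 members were detected on 60 of 60 arrays, and no spot of any member was saturated.

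**Figure D2:**
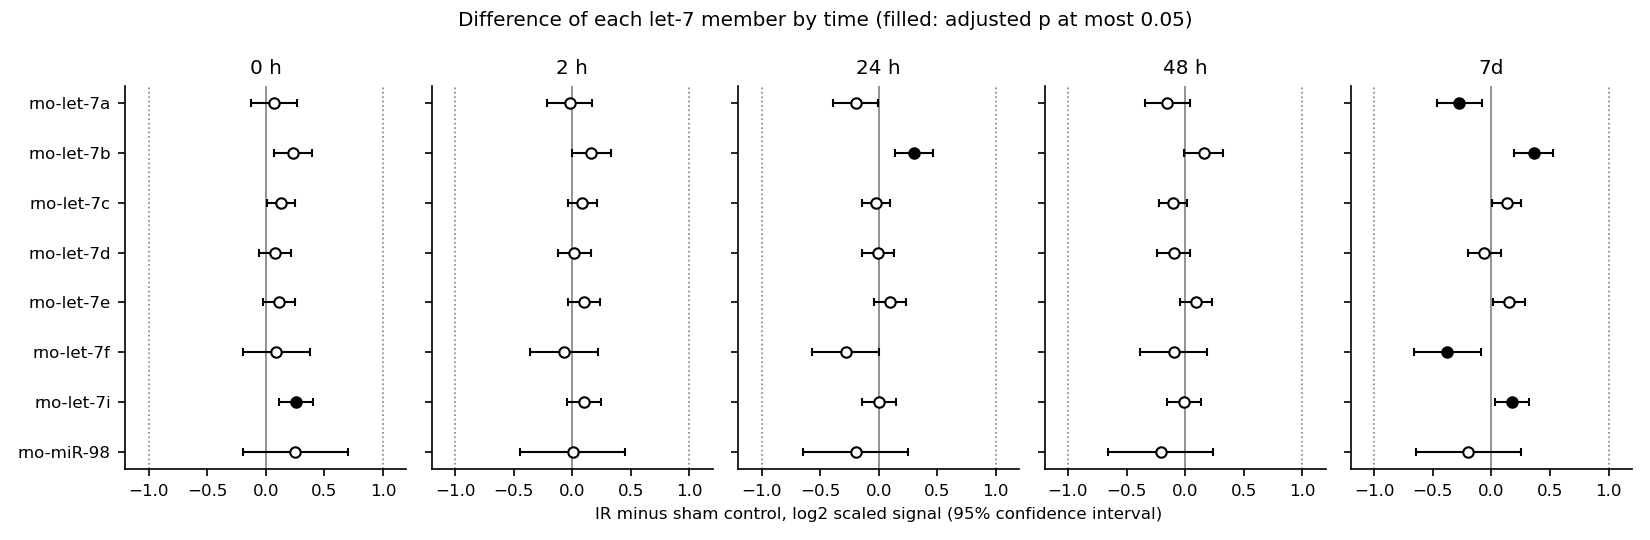
Difference between IR and sham control (log2 scaled signal, horizontal axis) of each member at each time, with 95% confidence intervals from the fit of 60 arrays; filled points have a limma adjusted p of at most 0.05 and dotted lines mark a 2-fold difference. No interval of the 7 members detected on every array reaches a dotted line, and at 7d rno-let-7b and rno-let-7i lie above 0 while rno-let-7a and rno-let-7f lie below it (rno-let-7i turns to −0.03 with scaling over all miRs, and with no normalization rno-let-7b turns to −2.22 and rno-let-7i to −2.41).

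At 48 h no member was called with limma or the exact permutation test, and none had p under 0.05 before adjustment. The single array of sham control 48 h replicate 1 held 8.03 for rno-let-7f, where the other 5 sham control arrays held 9.62 to 9.84. Without that array 4 members were called at 48 h, with rno-let-7a at −0.31 (limma adjusted p = 0.000279), rno-let-7d at −0.20 (0.000923), rno-let-7f at −0.37 (9.38e-05) and rno-let-7b at 0.26 (0.00161). At 2 h likewise no member was called with either test or had p under 0.05 before adjustment, and the differences lay between −0.07 and 0.16. By the exact permutation test with the same adjustment, rno-let-7a (adjusted p = 0.0403) and rno-let-7f (0.0207) were also past the threshold at 24 h, and rno-let-7c (0.0466) and rno-let-7e (0.0313) at 7d.

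The difference between members on the same array does not depend on the factor by which the array was scaled. Here only its change between groups is read, since signals of different probes are not levels of the same scale. The pairs were chosen because these members diverged, so their separation at 24 h and 7d is a description and no separate support. rno-let-7b minus rno-let-7f was 1.35 ± 0.04 in IR at 7d (1.27 to 1.40) and 0.61 ± 0.17 in sham control (0.28 to 0.75, SD, n = 6). The IR values exceeded the highest sham control value in 6 of 6 cases at 7d and in 5 of 6 at 24 h, where the means were 1.35 ± 0.12 and 0.77 ± 0.26. rno-let-7b minus rno-let-7a gave 0.57 ± 0.07 against −0.06 ± 0.14 at 7d (6 of 6) and 0.57 ± 0.10 against 0.07 ± 0.25 at 24 h (5 of 6). At 48 h 0 of 6 IR values exceeded the highest sham control value in either pair (3.06 and 1.63). For both pairs the IR groups kept nearly the same value from 0 h to 7d, at 1.33 to 1.43 and 0.56 to 0.64, whereas the sham control means ranged from 0.61 to 1.19 and from −0.06 to 0.43.

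Set against the mean of the other 7 members on its array, rno-let-7b lay 0.39 higher in IR at 24 h and 0.42 higher at 7d, with 6 of 6 IR values above the highest sham control value at both times. At 7d rno-let-7a lay 0.30 lower and rno-let-7f 0.42 lower, with 6 of 6 IR values under the lowest sham control value for each. These values are a description with no test, since each is read against the other members. Over the 60 arrays the 21 pairs of the 7 brighter members had correlations with a median of 0.34. The highest was 0.944 between rno-let-7a and rno-let-7f, which differ by 1 base and lie in 1 cluster, and the lowest was −0.634 between rno-let-7b and rno-let-7f. All these points share array, scaling and brightness.

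Over time, the mean level of the IR group was lowest at 48 h in 8 of 8 members. It was highest at 0 h in rno-let-7a, rno-let-7d, rno-let-7f, rno-let-7i and rno-miR-98, at 2 h in rno-let-7b and rno-let-7e, and at 7d in rno-let-7c. From the lowest to the highest IR mean the distance was 0.09 in rno-let-7b, 0.13 in rno-let-7f and 0.14 in rno-let-7a. It was 0.39 in rno-miR-98 and, highest among the 7 brighter members, 0.35 in rno-let-7i, whose IR means were 9.63 ± 0.15 at 48 h, 9.71 ± 0.09 at 24 h, 9.79 ± 0.10 at 7d, 9.88 ± 0.11 at 2 h and 9.98 ± 0.13 at 0 h (SD, n = 6), with each neighbouring pair in this order closer than the larger SD of the pair. Differences between IR groups of different times were not tested.

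Among the sham control groups the means of rno-let-7f were 9.37 ± 0.17 at 0 h, 9.42 ± 0.68 at 48 h, 9.47 ± 0.16 at 2 h, 9.70 ± 0.14 at 24 h and 9.79 ± 0.17 at 7d (SD, n = 6). Without replicate 1 the 48 h mean was 9.70 ± 0.09 (n = 5), level with 24 h. In the order without that array, only 2 h and the groups at 9.70 lay farther apart than the SD of either group. Against sham control at 0 h, 0 of 8 members were called at 2 h, 24 h and 48 h with limma, where 0%, 0% and 0.629% of all miRs were, and the counts of members with p under 0.05 before adjustment were 0, 2 and 1. Without the sham control 48 h array of replicate 1 the counts of members called at a limma adjusted p of at most 0.05 rose from 0 to 2 at 24 h and from 0 to 1 at 48 h. At 7d 2 of 8 were called, where 10.1% of all miRs were. Those were rno-let-7f at 0.42 (limma adjusted p = 0.0473) and rno-let-7a at 0.31 (0.0472), the same members that were lower in IR at 7d, and the contrasts share the sham control 7d arrays. The count at 7d was 0 with scaling over all miRs, with the scaling set without let-7 members, with no normalization or with the slide as a block, and 1 with quantile normalization or the scan as a block.

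Whether the difference between IR and sham control itself shifted between times was tested with interaction contrasts. For 2 h against 0 h, 24 h against 2 h, 48 h against 24 h and 7d against 48 h, limma called 0 of 8 members each, and 0.629%, 23.9%, 0% and 3.14% of all miRs. Before adjustment, p was under 0.05 in 0, 0, 0 and 1 members. That member was rno-let-7c, whose difference shifted by 0.23 from 48 h to 7d (limma adjusted p = 0.112). The call at 7d and the lack of one at 48 h are therefore not shown to differ for any of the 4 members called at 7d.

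The arrays lay on 9 slides of which 2 held both treatments, and at no time did IR and sham control arrays share a slide. The comparison of slides was chosen after its values were seen. All 6 sham control arrays at 7d and at 48 h lay on slides that held sham control arrays only, as did 5 of 6 at 24 h but 1 of 6 at 0 h and 2 of 6 at 2 h. On the slides with both treatments, rno-let-7f was 9.35 ± 0.09 on 10 sham control arrays and 9.35 ± 0.09 on 6 IR arrays. It was 9.42 ± 0.10 on the 24 arrays of slides with IR only, and 9.74 ± 0.12 on 19 arrays of slides with sham control only (SD; 9.65 ± 0.40 with the sham control 48 h array of replicate 1).

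In the same order of slides, rno-let-7a was 10.14 ± 0.03 on sham control arrays of slides with both treatments (n = 10) and 10.43 ± 0.11 on slides with sham control only (n = 19, without that array), and 10.12 ± 0.07 (n = 6) and 10.20 ± 0.11 (n = 24) on IR arrays of slides with both treatments and of slides with IR only. rno-let-7b was 10.65 ± 0.11 and 10.44 ± 0.10 on those sham control arrays, and 10.77 ± 0.07 and 10.78 ± 0.10 on those IR arrays. rno-let-7i was 9.82 ± 0.09 and 9.64 ± 0.08, and 9.73 ± 0.07 and 9.81 ± 0.18. On the slides with both treatments, where times differ between the treatments, IR minus sham control was 0.01 for rno-let-7f, −0.02 for rno-let-7a, 0.11 for rno-let-7b and −0.08 for rno-let-7i.

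With the slide as a block, 0 of 8 members were called at any time. The differences at 7d were then −0.02 for rno-let-7a (limma adjusted p = 0.927), −0.08 for rno-let-7f (0.797), 0.18 for rno-let-7b (0.246) and −0.05 for rno-let-7i (0.737). At 24 h rno-let-7b was at 0.24 (0.186), and at 0 h rno-let-7i was at 0.15 (0.396). As a random block, the slide left rno-let-7b called at 24 h (0.31, limma adjusted p = 0.00485) and at 7d (0.29, 0.00403) and rno-let-7i at 0 h (0.25, 0.026), and ended the other 3 calls. With array brightness as a covariate, the call for rno-let-7i at 0 h stayed (0.29, 0.00988) and the 5 calls at 24 h and 7d did not. These were then 0.17 for rno-let-7b at 24 h (limma adjusted p = 0.305) and, at 7d, 0.20 for rno-let-7b (0.292), −0.12 for rno-let-7a (0.568), −0.16 for rno-let-7f (0.623) and 0.26 for rno-let-7i (0.0819). The scaling itself also ended calls. With let-7 members left out of the scaling set, rno-let-7i had 0.21 at 0 h (limma adjusted p = 0.199) and 0.14 at 7d (0.249) and rno-let-7b had 0.16 at 24 h (0.055), and the other 3 calls stayed. At 7d rno-let-7b was not called with scaling over all miRs (0.16, limma adjusted p = 0.166), in the authors' table (0.11, 0.351) or with normexp (0.05, 0.611). The part of slide and brightness in the members' differences was not tested further.

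**Figure D3:**
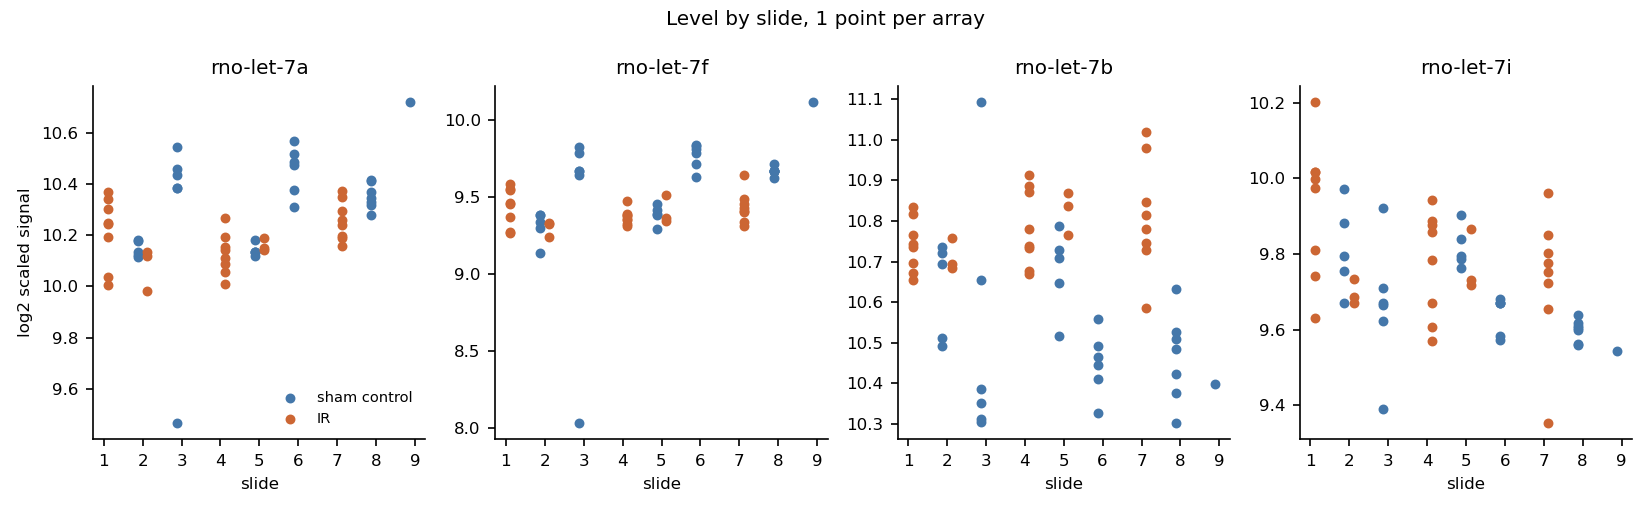
Level (log2 scaled signal, vertical axis) of the 4 members called at 7d on each of the 9 slides, with 1 point per array, blue for sham control and orange for IR. Slides 2 and 5 hold both treatments; the sham control arrays of rno-let-7a and rno-let-7f on slides 3, 6, 8 and 9 lie above those of slides 2 and 5, except 1 array on slide 3.

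**Figure D4:**
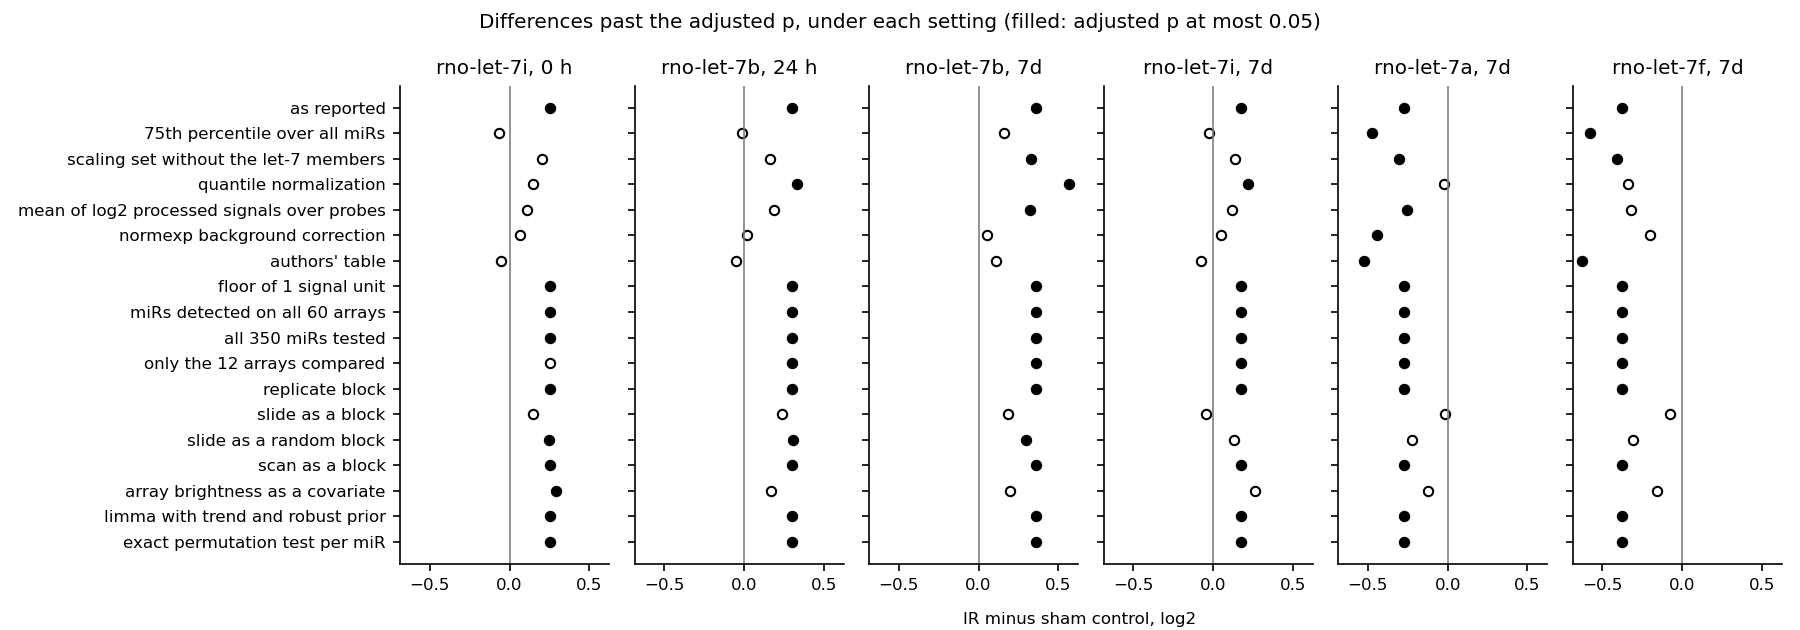
Difference between IR and sham control (log2, horizontal axis) for the 6 calls of a member at a time, as reported and under 17 other settings (vertical axis, 1 per line; no normalization is not drawn); filled points have an adjusted p of at most 0.05. rno-let-7a and rno-let-7f at 7d stay below 0 in every line, rno-let-7b at 7d stays above 0, and rno-let-7i at both times and rno-let-7b at 24 h fall on both sides of 0.

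A guide strand leaves its hairpin together with a passenger strand, written with a star, and 4 of these were on the array. rno-let-7d* was the passenger strand that could be tested, and it was detected on 40 of 60 arrays. At 24 h it was detected on 6 of 6 IR and 4 of 6 sham control arrays, and at 7d on 5 of 6 and 6 of 6. It held 6.92 ± 0.45 in IR and 4.24 ± 0.76 in sham control at 24 h (SD, n = 6), with 6 of 6 IR values above the highest sham control value. Its differences were 1.58 at 0 h (limma adjusted p = 0.0494), −0.75 at 2 h (not called), 2.68 at 24 h (7.28e-05), 1.86 at 48 h (0.00437) and 2.53 at 7d (0.000135), beside −0.10 to 0.08 for its guide strand rno-let-7d (−0.20 at 48 h without the sham control 48 h array of replicate 1). With brightness as a covariate none of these calls stayed, with 0.55 at 0 h (limma adjusted p = 0.749), 0.59 at 24 h (0.580), 0.70 at 48 h (0.325) and 0.01 at 7d (0.988). The same held with no normalization, with 0.42 (0.422), 0.53 (0.291), 0.77 (0.134) and −0.06 (0.922). The slide block ended the calls at 0 h (1.41, 0.357) and 48 h (2.10, 0.0729), and that at 0 h was also lost with only the 12 arrays (0.180), a floor of 1 (0.165), processed signals (0.169) and the authors' table (0.107). The call at 0 h was lost as well with the set without let-7 members (0.0605), quantile (0.0538), all 350 miRs (0.0514), the replicate block (0.0524) and the random slide block (0.118). It stayed with scaling over all miRs (0.0330), normexp (0.00713) and the scan block (0.0434). rno-let-7b* was detected on 26 arrays, rno-let-7i* on 1 and rno-let-7e* on 0.

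Of the 5 cluster partners, miRs that lie near let-7 loci, 0 were called at 0 h and 2 h (lowest limma adjusted p of 0.248 and 0.415). At 24 h 2 were lower, and at 48 h and 7d 2 were lower and 1 was higher. The share of all 159 miRs called was 12.6%, 7.55%, 60.4%, 54.7% and 59.7% at the 5 times. The higher one at 48 h was rno-miR-99a (0.24, limma adjusted p = 0.0475). It was not called with scaling over all miRs (0.08, 0.629), quantile (0.20, 0.156), only the 12 arrays (0.197) or the slide block (−0.07, 0.737). With the replicate or scan block it stayed called (0.0190 and 0.0151). rno-miR-99b, 95 bases from rno-let-7e, was detected on 0 of 6 IR arrays at 24 h, 3 of 6 at 48 h and 2 of 6 at 7d, against 6 of 6 sham control arrays each time. Its measured difference was −0.71 at 48 h (limma adjusted p = 0.0302) and −0.81 at 7d (0.0108), where rno-let-7e had 0.10 and 0.15. With normexp its difference turned to 0.77 at 48 h (limma adjusted p = 0.0244) and 1.21 at 7d (0.000501). At these times it was −0.16 and 0.38 with brightness as a covariate (0.717 and 0.542), and the slide block gave −0.88 and −0.85, not called (0.0985 and 0.0975). rno-miR-99a, 639 bases from a copy of rno-let-7c, held 9.80 ± 0.13 in IR at 7d and 9.19 ± 0.19 in sham control (SD, n = 6), with 6 of 6 IR values above the highest sham control value. That difference of 0.61 (limma adjusted p = 2.19e-06) was 0.26 with the slide as a block (0.0766) and −1.98 with no normalization, beside 0.13 for rno-let-7c. rno-miR-125b-5p, from the clusters with miR-99a and miR-100, was −0.42 at 24 h (limma adjusted p = 0.000249), −0.47 at 48 h (4.82e-05) and −0.43 at 7d (0.000168). A block for the slide ended all 3 calls (−0.22, −0.23 and −0.13, limma adjusted p = 0.128, 0.0671 and 0.302), and with normexp those at 24 h (−0.13, 0.276) and 7d (−0.04, 0.689) were.

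The 5 miRs outside the family whose group means followed the mean of the 7 brighter members most closely, out of 50 compared over the 10 groups, were rno-miR-96 (r = 0.592), rno-miR-29c* (0.581), rno-miR-204 (0.512), rno-miR-211 (0.472) and rno-miR-331 (0.423). Over the 60 arrays the same correlations were 0.340, −0.07, 0.676, 0.543 and 0.149. Without the sham control 48 h array of replicate 1 the values over groups were 0.440, 0.331, 0.539, 0.570 and 0.264. All values share array and scaling. The mean of the 7 members at 0 h averaged 10.05 ± 0.07 over the 6 IR arrays and 9.91 ± 0.03 over the 6 of sham control (SD), and its differences at the later times lay between −0.03 and 0.05 (−0.11 at 48 h without the sham control 48 h array of replicate 1).

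Markers of other tissues were looked at beside these values. Of 4 blood miRs, miR-144 and miR-142-3p were detected on 0 of 60 arrays, miR-451 on 1 and miR-223 on 16. Their summed log2 signal at 7d was 5.55 to 6.69 in IR and 4.63 to 5.12 in sham control, and at 24 h 5.42 to 6.97 and 4.63 to 5.11. These sums include undetected signals. Arrays with detected miR-223 numbered 2 per treatment at 7d and 1 per treatment at 24 h. For miR-451 the numbers at 7d were 0 in IR and 1 in sham control. The higher sums in IR therefore do not show a rise of blood miRs, and the part of brightness in them was not tested. Of 4 muscle miRs, miR-133a was detected on 0 arrays, miR-133b on 7, miR-1 on 11 and miR-206 on 57. The summed log2 signal of these muscle miRs at 7d was 6.83 to 7.48 in IR and 5.81 to 6.41 in sham control. The sum at 7d also includes undetected signals, since 0 IR arrays at 7d had detected miR-1 or miR-133b. At 2 h the muscle sum was 6.50 to 9.12 in IR and 5.48 to 6.36 in sham control, and at 24 h 7.24 to 8.19 and 5.85 to 6.34. The ranges overlapped at 0 h (7.13 to 8.64 and 4.63 to 7.42) and at 48 h (7.76 to 9.32 and 5.97 to 7.86). At 2 h miR-1 was detected on 4 IR arrays and 0 sham control arrays. The liver miR-122 was detected on 14 arrays, among them 4 IR arrays and 1 sham control array at 2 h. The part of these markers in the members' differences was not tested.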

How the data were processed

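Cy3-labeled total RNA from 60 retinas was hybridized to 1-color Agilent rat miR arrays. Per the file headers, the authors extracted the intensity of each spot with Agilent Feature Extraction 9.5.3.1 (annotation on build rn4), which subtracted background and summed probes into a total signal per miR, with no normalization between arrays. The authors also deposited a log2 table of 219 features. For the 210 of these that matched a miR, 12600 of 12600 values were the log2 total signal, with values under 1 set to 1, less a constant of each array (tolerance 0.001), so its scale and centring are known. Its column medians lie between −0.856 and −0.409. It was used as an alternative only.

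Here total signals were divided by the 75th percentile of each array, read from 57 miRs that every array detected, and multiplied by the geometric mean of these percentiles. Values under a floor of 6.20 signal units were set to it (2.63 in log2). The 159 miRs that all 6 arrays of some group detected entered 1 limma 3.58.1 fit in R 4.3.3 with 10 groups, with Benjamini-Hochberg adjustment per comparison. Other steps used matplotlib 3.10.9, pandas 2.3.3, scipy 1.17.1 and numpy 2.4.6 in Python 3.11.15. Groups and replicate numbers came from the labels, and no array was left out. No 2 arrays were identical (the smallest SD of log2 differences was 0.0684 over 1770 pairs), and the number of arrays limits the precision. The fit was tested on simulated data modelled on the 24 h comparison: of 159 miRs, 40 carried a log2 change of 1 and 37 of them were called, as were 2 of the 119 without a change. The simulation held no slide or brightness effect and no smaller change. It therefore does not show how the fit performs at the members' differences, which were at most 0.38.

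The alternatives were other scalings (75th percentile over all miRs, the scaling set without let-7 members with 50 miRs, quantile, none), other probe summaries (mean of log2 processed signals, normexp with an offset of 50), the authors' table, a floor of 1 signal unit, other sets of tested miRs or arrays, a block for slide, scan or replicate number, brightness as a covariate, a trend with a robust prior, exact permutation tests, and each array left out in turn. Named miRs were all members, their passenger strands, 5 cluster partners and the 5 miRs most alike in group means. The members and lists were chosen with earlier results of these data known.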

Additional observations from a re-analysis of the deposited data

Results flagged for a closer look

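Groups of 6 arrays were searched for an array whose gap to its nearest neighbour took up more of its group's range than the 95% critical value of Dixon's test allows. Of 100 groups (8 members and 2 array measures in 10 groups) 17 held such an array, where chance gives about 1 in 20. The sham control 48 h array of replicate 1 was the lowest of its group in rno-let-7a (9.47), rno-let-7d (9.16), rno-let-7e (8.82), rno-let-7f (8.03), rno-miR-98 (3.92) and brightness (9.87). At 7d, the IR array of replicate 4 was the highest in rno-miR-98 (6.10, not detected) and the lowest in brightness (7.27), the IR array of replicate 5 the highest in rno-let-7a (10.37), the IR array of replicate 1 the lowest in rno-let-7d (9.61), and the sham control array of replicate 6 the highest in rno-let-7f (10.12). Among the other sham control arrays, replicate 1 at 0 h was the highest in rno-let-7c (10.58) and rno-let-7d (9.87), replicate 6 at 0 h the highest in rno-let-7a (10.35), replicate 6 at 2 h the lowest in rno-let-7e (9.18), and replicate 3 at 24 h the highest in rno-let-7i (9.90). The IR 24 h array of replicate 2 was the lowest in rno-let-7e (9.26).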

How the results depend on the processing

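Of 1195 member differences under an alternative, 1041 stayed on their side of the threshold in the same direction or with neither value called, 82 passed the threshold where the reported one did not, 39 no longer passed it and 33 turned in sign where one of the 2 values was called. The cause of these shifts was not tested. Among the members, rno-miR-98 alone was not detected on every array. Normexp background correction also changed a brighter member, with rno-let-7b at 48 h going from 0.16 to −0.24 (limma adjusted p = 0.0258 with normexp). With normexp 6 members were called at 48 h and 2 at 7d. The part of signal over background in the differences of the brighter members was not tested.

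The number of members called at 0 h (1) was 0 with scaling over all miRs, with the scaling set without let-7 members, quantile normalization, mean processed signals, the authors' table, only the 12 arrays or the slide as a block. It was 2 with a floor of 1, all 350 miRs, slide as a random block, scan as a block, or trend and robust prior, and 8 with no normalization. At 24 h (1) it was 5 with scaling over all miRs, 3 without let-7 members in the set, with mean processed signals, normexp or only the 12 arrays, 7 in the authors' table, 8 with no normalization, and 0 with the slide block or brightness. At 48 h (0) it was 2 with scaling over all miRs, without let-7 members in the set or in the authors' table, 1 with quantile, 6 with normexp, and 8 with mean processed signals or no normalization. At 7d (4) it was 2 with quantile, mean processed signals or normexp, 8 with no normalization, 1 with the slide as a random block, and 0 with the slide block or brightness.

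The members' median moved at 0 h to −0.20 (scaling over all miRs), −0.94 (no normalization), −0.034 (processed signals), −0.00699 (normexp) and −0.19 (authors' table). At 24 h it moved to −0.33, −2.17, −0.17 (processed signals), −0.37 (authors' table) and −0.15 (set without let-7 members), those of 48 h, in that order, were −0.25, −1.29, −0.48, −0.23 and −0.22, and the median at 7d moved to −0.17 (scaling over all miRs), −2.55 (no normalization) and −0.22 (authors' table). Interaction counts of 0 became 3 (scaling over all miRs), 1 (set without let-7 members) and 8 (no normalization) for 24 h against 2 h, and 8 (no normalization) for 7d against 48 h. The sham control count at 7d against 0 h (2) was 0 with scaling over all miRs, the set without let-7 members, no normalization or the slide block, and 1 with quantile or the scan block. Without the sham control 48 h array of replicate 1, chosen after seeing the data, sham control at 24 h and 48 h against 0 h gave 2 and 1 called members, and the interaction counts stayed at 0.

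With no normalization, signs turned at 0 h in rno-let-7a (−0.99), rno-let-7b (−0.83), rno-let-7c (−0.93), rno-let-7d (−0.98), rno-let-7e (−0.95), rno-let-7f (−0.97), rno-let-7i (−0.81) and rno-miR-98 (−0.81), at 24 h in rno-let-7b (−1.85), rno-let-7e (−2.06) and rno-let-7i (−2.15), at 48 h in rno-let-7b (−1.04) and rno-let-7e (−1.10), and at 7d in rno-let-7b (−2.22), rno-let-7c (−2.45), rno-let-7e (−2.43) and rno-let-7i (−2.41). With scaling over all miRs they turned in rno-let-7i at 0 h (−0.065), 24 h (−0.31) and 7d (−0.027) and in rno-let-7b at 24 h (−0.011). In the authors' table they turned in rno-let-7i at 0 h (−0.054), 24 h (−0.35) and 7d (−0.077) and at 24 h in rno-let-7b (−0.051) and rno-let-7e (−0.26). Processed signals turned rno-let-7b (−0.20) and rno-let-7e (−0.39) at 48 h, normexp turned rno-let-7b at 48 h (−0.24) and rno-miR-98 at 24 h (0.92), 48 h (0.95) and 7d (1.29), and the slide block turned rno-let-7i at 7d (−0.046).

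Leaving out each array in turn gave between 0 and 2 called members at 0 h (median from 0.10 to 0.15), 0 at 2 h (0.04 to 0.07), between 1 and 3 at 24 h (−0.04 to 0.00163), between 0 and 4 at 48 h (−0.15 to −0.04) and between 1 and 6 at 7d (0.02 to 0.05). At 0 h the count was 0 without IR replicate 3 and 2 (with rno-let-7b) without IR replicate 1 or sham control replicates 1 or 4. At 48 h it was 4 without sham control replicate 1 and 1 (rno-let-7c) without sham control replicate 6. At 24 h it was 3 without sham control replicate 3, and at 7d it was 1 (rno-let-7b) without sham control replicate 6 and 6 without IR replicate 1.

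Replicate numbers were not taken as pairs in the main fit. The 30 pairs of deviations with the same number correlated between −0.449 and 0.601 (median 0.108), with 15 over 0.1. In 7 cases an IR array correlated best with its own number. Arrays of the same number and time also shared a scan, so a weak pairing and the scan cannot be told apart. With the replicate block the counts were 1, 0, 1, 0 and 5 at the 5 times, the added member being rno-let-7e at 7d (0.15, limma adjusted p = 0.0402).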
